A study of Mus musculus with 6 samples.

Results

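Small nucleolar RNA (snoRNA) host genes and abundant nuclear noncoding RNAs were examined in libraries of the mouse dendritic cell line DC2.4 labelled as control or as PD-L1 knockout. The set was defined by name as the snoRNA hosts Gas5, Snhg1, Snhg3, Snhg5, Snhg6, Snhg8 and Snhg12 and the nuclear RNAs Malat1 and Neat1, 9 genes in all. Of the 31205 genes in the deposited count table, 4 carried one of these names: Snhg6, Snhg12, Malat1 and Neat1. The other 5 members were not analysed here. All 4 passed the filter on low counts, beside 11453 genes in total. RNA sequencing libraries had been made from 3 samples of DC2.4 cells with the genotype Control and 3 with the genotype PD-L1 knockout, both without any treatment named in the labels. The series title concerns PD-L1, the ligand of the T cell receptor PD-1, and ferroptosis of dendritic cells in immunogenic chemotherapy. How the knockout was made, whether it is a single clone and what the control cells carried is not stated in the labels.

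SnoRNA host genes are transcribed and spliced like messenger RNA genes, but the product that is used lies in the introns: box C/D snoRNAs direct ribose methylation and box H/ACA snoRNAs direct pseudouridine formation in ribosomal RNA. Many spliced host transcripts begin with a run of pyrimidines, the start that also marks messenger RNAs of the translation machinery, and many are removed by nonsense-mediated decay when ribosomes meet their short reading frames. Malat1 is kept in nuclear speckles, which store splicing factors, and the long form of Neat1 is the scaffold of paraspeckles, nuclear bodies that hold RNA-binding proteins and RNA. Mature Malat1 and the long form of Neat1 end in a triple helix in place of a poly(A) tail.

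The first 60 bases of 1 annotated transcript of each measured member (GENCODE M21, build GRCm38, 5′ to 3′) are shown to compare their starts. Snhg6-203 starts on the minus strand at chr1:9944059-9944118, Snhg12-204 on the plus strand at chr4:132308677-132308736, Malat1-201 on the minus strand at chr19:5802613-5802672 and Neat1-201 on the minus strand at chr19:5845419-5845478. Capitals mark CTTTCTC, the letters that both host transcripts share at base 1.
Snhg6-203: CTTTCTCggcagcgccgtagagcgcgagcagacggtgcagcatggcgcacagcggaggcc
Snhg12-204: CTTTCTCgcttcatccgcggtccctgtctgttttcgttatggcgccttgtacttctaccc
Malat1-201: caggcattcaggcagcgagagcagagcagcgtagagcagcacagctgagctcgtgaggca
Neat1-201: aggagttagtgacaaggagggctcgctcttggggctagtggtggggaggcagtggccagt
The search letters were chosen after these starts had been read, and only the strand of the transcript was searched. CTTTCTC lay within the first 10 bases of 1 of 5 Snhg6 transcripts, 3 of 10 Snhg12 transcripts and none of the Malat1 and Neat1 starts shown. Both host transcripts shown are among those with these letters, and most annotated transcripts of either host lack them there. Of 11417 tested genes with a gene model, 46 (0.403%) had these letters in that window of any transcript, and 1 of 18 tested genes of the pyrimidine-start list described further on was among them. Annotated starts can be off by bases, so a missing match says only that the letters are not in this window.

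The introns of the 2 hosts hold the snoRNAs printed next, with capitals on the C box (TGATGA) and the D box (CTGA) of the box C/D members Snord87 and Snord99, and on the ACA box, 3 bases from the end, of the box H/ACA members Snora16a and Snora61. Snord87 lies in the last part of Snhg6 on the minus strand (chr1:9942463-9942549, 87 bases) and is intronic in 5 of 5 transcripts. Within Snhg12, on the plus strand, lie Snora16a (chr4:132309464-132309600, 137 bases), Snora44 (129 bases, named only), Snora61 (chr4:132310240-132310369, 130 bases) and Snord99 (chr4:132310691-132310764, 74 bases). Snora44 had no ACA 3 bases from its annotated end.
Snord87: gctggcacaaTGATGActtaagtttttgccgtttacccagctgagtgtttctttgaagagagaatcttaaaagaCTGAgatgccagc
Snora16a: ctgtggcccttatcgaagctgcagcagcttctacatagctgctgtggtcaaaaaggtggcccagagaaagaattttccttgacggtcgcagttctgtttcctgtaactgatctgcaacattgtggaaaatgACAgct
Snora61: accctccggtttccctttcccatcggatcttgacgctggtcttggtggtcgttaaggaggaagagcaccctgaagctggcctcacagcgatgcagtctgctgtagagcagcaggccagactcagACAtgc
Snord99: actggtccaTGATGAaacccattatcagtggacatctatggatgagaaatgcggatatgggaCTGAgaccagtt
Snhg12 transcripts are not spliced alike around these genes. Snora61 was intronic in 5 of 10 Snhg12 transcripts and overlapped an exon in the other 5, whereas no Snhg6 exon overlapped Snord87. Neither these snoRNAs nor any of the 28 snoRNAs listed for the member hosts were analysed here, so the values that follow are for the host transcripts.

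The libraries held 10918498 to 23250065 counts assigned to genes, and each value is given as CPM, the count scaled to library size by TMM normalization. Among the 11453 tested genes, edgeR's quasi-likelihood test called 1353 (11.8%) higher and 1543 (13.5%) lower in the knockout at a Benjamini-Hochberg adjusted p of 0.05, which is 25.3% in both directions together, and the 3 control values did not overlap the 3 knockout values for 43.0%. The gene targeted by the knockout, Cd274, was read at 52, 99 and 171 counts in control and 102, 81 and 163 in the knockout, a level that was not lower and that cannot check the label, since a transcript can persist after its reading frame is broken. Summed leukocyte and dendritic cell markers lay between 804 and 886 CPM in every library, while T and B lymphocyte markers summed to at most 1.07 CPM, with Cd3g, Cd8a and Ms4a1 at 0. Stromal markers reached 220 CPM in control library 2 and at most 1.16 in the other 5, from Col1a1 (2235 counts) and Fn1 (1382 counts), with Dcn and Lum at 0. In bulk libraries fewer cells with a transcript and less of it per cell cannot be told apart.

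Of the 4 measured members, Snhg6 rose in the knockout, Snhg12 was higher on average without passing the test, and Malat1 and Neat1 did not pass it either. So 1 of 4 was called higher, beside 11.8% of all tested genes, and 0 of 4 lower, beside 13.5% (edgeR). None of the 4 was lower at an unadjusted p under 0.05, by DESeq2 or by limma-voom. The control and knockout values failed to overlap for Snhg6 alone of the 4, beside 43.0% of all tested genes.

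**Figure D1:**
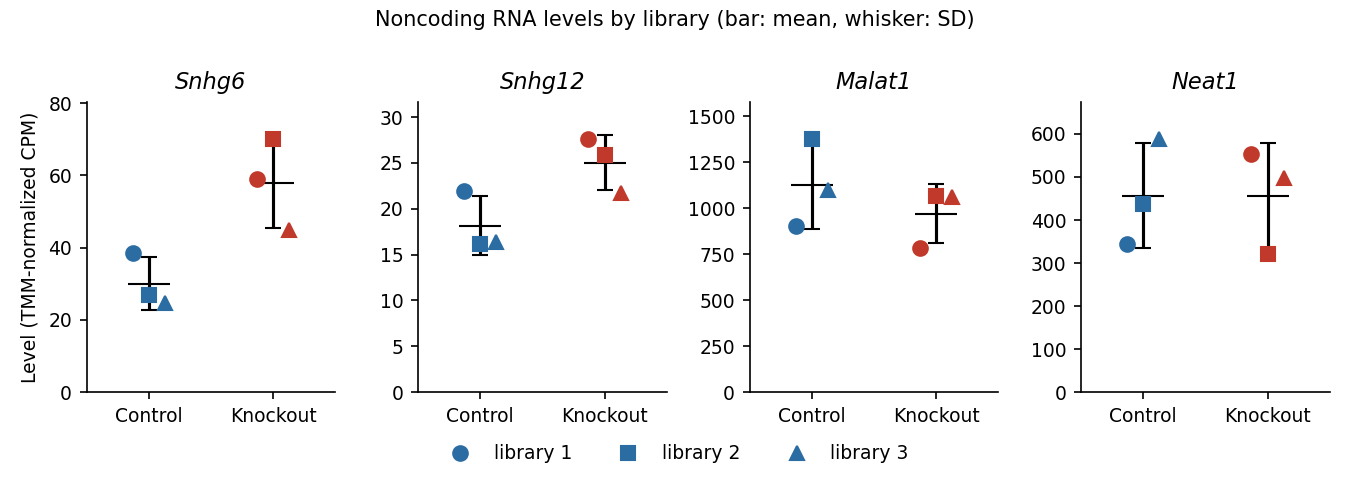
Levels of the 4 measured RNAs in TMM-normalized CPM (y axis, each panel from 0) in control and knockout libraries, with a symbol for each library number, a bar at the mean and whiskers of 1 SD (n = 3). The knockout values of Snhg6 all lie above its control values, and the groups overlap for Snhg12, Malat1 and Neat1.

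Snhg6 (ENSMUSG00000098234.7, chromosome 1, 9941959 to 9944118, minus strand) is the host of Snord87 and has exons that cover 1146 bases. Control libraries 1, 2 and 3 gave 430, 455 and 618 counts, or 38.5, 27.0 and 24.7 CPM, and knockout libraries 1, 2 and 3 gave 781, 1041 and 904, or 59.0, 69.9 and 45.0 CPM. Every knockout library was above every control library, and the lowest knockout value, that of library 3, was 45.0 CPM against the highest control value of 38.5. The mean rose from 30.0 ± 7.39 CPM in control to 57.9 ± 12.5 in the knockout (SD, n = 3). The edgeR log2 fold change was 0.95, a ratio of 1.94. It had an SE of 0.21, a 95% interval from 0.48 to 1.42 and an edgeR adjusted p = 0.0131. The call was lost without control library 2, which holds the stromal markers (0.88, adjusted p = 0.0706), and without knockout library 2 (0.79, adjusted p = 0.0563), while the log2 fold change stayed positive in both. The genes called higher over the whole table fell from 1353 to 166 and 399 in these settings.

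Snhg12 (ENSMUSG00000086290.9, chromosome 4, 132308623 to 132311024, plus strand) hosts both classes of snoRNA and covers 2402 exonic bases. Its counts were 245, 273 and 410 in control and 365, 385 and 436 in the knockout, or 21.9, 16.2 and 16.4 CPM against 27.6, 25.9 and 21.7. The groups touched at their edges, since knockout library 3 lay just under control library 1. The means were 18.2 ± 3.26 and 25 ± 3.02 CPM (SD, n = 3), and edgeR put the log2 fold change at 0.47 with an SE of 0.17, a 95% interval from 0.09 to 0.85 and an adjusted p = 0.0693. The difference was not called at this depth and spread, and leaving out control library 1, the highest control, brought it under the threshold (0.62, adjusted p = 0.0336). The ratio of their reads compares the 2 hosts within each library: Snhg6 had 1.76, 1.67 and 1.51 reads for each Snhg12 read in control libraries 1, 2 and 3 and 2.14, 2.7 and 2.07 in the knockout libraries. All 3 knockout ratios were above all 3 control ratios. An exact permutation test of the log2 ratio (0.71 ± 0.11 in control and 1.19 ± 0.21 in the knockout, SD, n = 3) gave a two-sided p of 0.1, the smallest that 3 libraries against 3 allow, so a difference between the hosts is not shown by it.

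Malat1 (ENSMUSG00000092341.3, chromosome 19, 5795690 to 5802672, minus strand), the speckle RNA, had the most reads of all genes that RefSeq lists as long noncoding. Its reads numbered 10087, 23174 and 27513 in control and 10392, 15905 and 21288 in the knockout, or 903, 1373 and 1099 CPM against 785, 1068 and 1059. Control library 2 was the highest of the 6 and knockout library 1 the lowest, with the other 4 interleaved. Means of 1125 ± 236 and 971 ± 161 CPM (SD, n = 3) gave an edgeR log2 fold change of -0.21, with an SE of 0.19, a 95% interval from -0.63 to 0.20 and an adjusted p = 0.414. The interval covers both a fall of 0.63 and a rise of 0.20, so neither a change nor its absence is shown. Without control library 2 the value was -0.04 (adjusted p = 0.907).

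Neat1 (ENSMUSG00000092274.3, chromosome 19, 5824708 to 5845478, minus strand), the paraspeckle RNA, lies 22.0 kb from Malat1 on the same strand. Its reads in libraries 1, 2 and 3 numbered 3853, 7396 and 14695 for control and 7324, 4770 and 9997 for the knockout, which corresponds to 345, 438 and 587 CPM against 553, 320 and 497. The highest and the lowest value of the 6 were control library 3 and knockout library 2, so the groups overlapped over nearly their whole range. Both means were 457 CPM (SD 122 in control and 121 in the knockout, n = 3), and edgeR put the log2 fold change at -0.0003, with an SE of 0.24, a 95% interval from -0.52 to 0.52 and an adjusted p = 0.999. Equal means with this spread do not show that the level was the same. Neat1 varied most of the 4 relative to its mean, with a coefficient of variation of 26.8% in control and 26.6% in the knockout, while counting error at its lowest count was 1.61%. The gene-level count does not separate the annotated 3004-base Neat1-202 from the 20771-base Neat1-201, whose starts lie next to each other, so a shift between the short form and the paraspeckle-forming long form is not measured by it.

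Library by library, Malat1 and Neat1 did not keep a fixed ratio. Malat1 had 2.62, 3.13 and 1.87 reads for each Neat1 read in control and 1.42, 3.33 and 2.13 in the knockout, so the lowest and the highest ratio were both in knockout libraries. Together the pair held 40.8% to 49.3% of the reads of all genes that RefSeq lists as long noncoding. Those genes took 0.29% to 0.39% of all counts. By reads over all libraries Malat1 ranked 1, Neat1 2, Snhg6 7 and Snhg12 19 among the 4093 of them in the table. Of the 348 that were tested, 10 genes (2.87%) were called higher, Snhg6 among them, and 35 (10.1%) lower, with a median log2 fold change of -0.09.

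Levels of different genes can be compared only per length, and the length that applies depends on the transcript. Divided by the union of all annotated exons, Malat1 had a mean of 161 CPM per kb in control and 139 in the knockout, Snhg6 26.2 and 50.6, Neat1 22.0 in both groups, and Snhg12 7.56 and 10.4. In control libraries Snhg6 (33.6, 23.5 and 21.5 CPM per kb) and Neat1 (16.6, 21.1 and 28.3) overlapped on this scale. On this scale Malat1 was above the other 3, and Snhg12 below them, in each of the 6 libraries. The order between these genes, the place of Malat1 included, does not hold for every annotated transcript. If all Neat1 reads came from the 3004-base Neat1-202, its level would be 152 CPM per kb in both groups, above Snhg6 for any of its transcripts (400 to 816 bases, 36.8 to 75.1 CPM per kb in control and 71.0 to 145 in the knockout). In the knockout that Neat1 level would also be above Malat1, at 139 CPM per kb over the 6983-base Malat1-201. Snhg12 would lie between 11.8 and 43.0 CPM per kb in control over its transcripts of 422 to 1538 bases.

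The 4 members differ widely in exon length, from 1146 to 20771 bases, and fold changes in these libraries moved with length. Over the tested genes whose exon length lay within 20% of each member's, the median log2 fold change was 0.42 around Snhg6 (431 genes), 0.25 around Snhg12 (1633 genes), -0.14 around Malat1 (2293 genes) and -0.66 around Neat1 (167 genes). Short genes were thus more often called higher and long genes more often lower: 28.3% of the class around Snhg6 was called higher and 3.02% lower, against 0.599% and 56.3% of the class around Neat1. Snhg6 had a larger log2 fold change than 92.6% of its class and Snhg12 than 73.9%. Both classes rest on all annotated exons together, which is longer than any annotated transcript of these hosts. Those transcripts have 400 to 816 bases for Snhg6 and 422 to 1538 for Snhg12, so the length class that applies to their reads is not known. Malat1 stood above 44.6% of its class. Neat1, at no difference of its own, stood above 89.2% of genes near its annotated exon length of 20771 bases. Its count does not separate the 3004-base Neat1-202, so the length class that applies to its reads is not known. Of the 81 tested genes with at least 20 kb of exon, 49 were called lower and 0 higher by edgeR, with 1 higher at an unadjusted p under 0.05 and 0 by DESeq2 or limma-voom, and their median was -0.82.

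**Figure D2:**
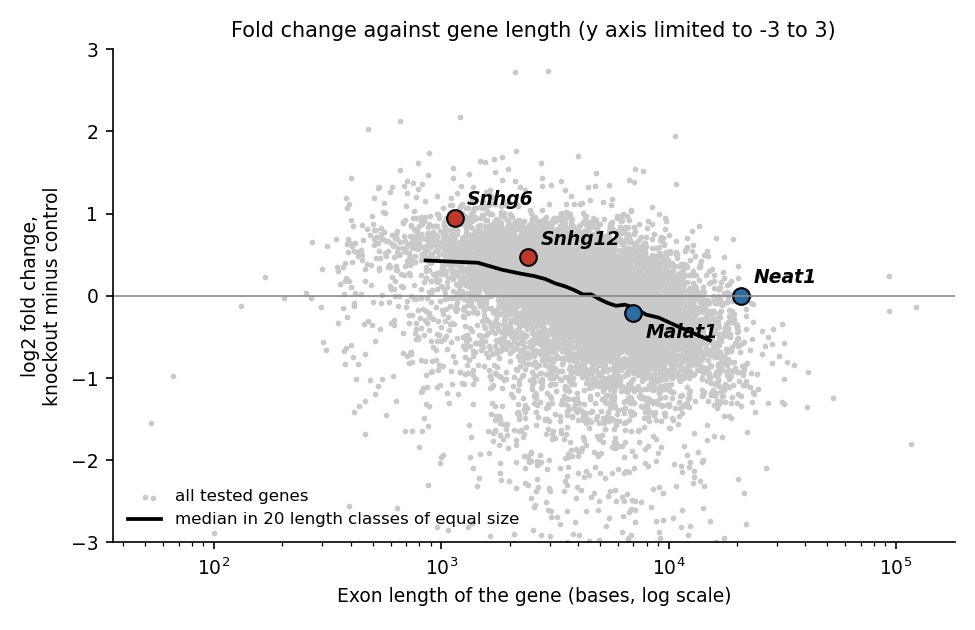
Log2 fold change, knockout minus control (y axis, limited to -3 to 3), against exon length in bases (x axis, log scale) for each tested gene with an annotated length (grey), with the median in classes of equal size (line) and the 4 members marked. Snhg6, Snhg12 and Neat1 lie above the line and Malat1 lies near it.

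A correction for exon length and GC content, which takes each library's trend out before the test, changed the answer for Neat1 and kept that for Snhg6. Snhg6 remained higher (log2 fold change 0.72, edgeR adjusted p = 0.0417) and Snhg12 remained uncalled. Malat1 moved to 0.01 (adjusted p = 0.974). Neat1 was called higher, with a log2 fold change of 0.83 (adjusted p = 0.0359), because the trend at its length was -0.88 and its own value was near 0. Neat1 lies where few genes define that trend, and whether a trend of mostly protein-coding genes applies to it was not tested. The trend was read at 20771 bases, all its annotated exons together, and whether that length applies to its reads was not tested either. For Snhg6 and Snhg12 the trend was read at 1146 and 2402 bases, longer than any of their annotated transcripts. Whether those lengths apply to the reads of the hosts was not tested. The correction moved the median of all tested genes from 0.01 to 0.13 and turned 1353 higher and 1543 lower calls into 2060 and 955.

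**Figure D3:**
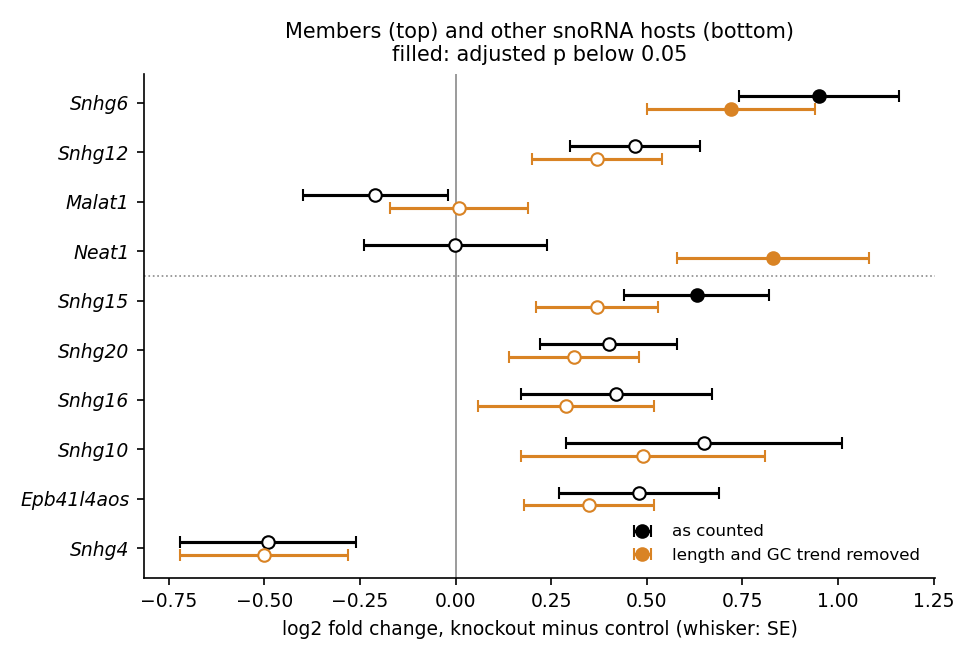
Log2 fold change, knockout minus control (x axis, whiskers of 1 SE), of the 4 members (top) and of 6 other snoRNA host genes (bottom), as counted (black) and after removal of the length and GC trend (orange), with filled symbols where the edgeR adjusted p was under 0.05. Snhg6 is filled in both, Snhg15 only as counted and Neat1 only after the correction.

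Other snoRNA host genes give the closest comparison for Snhg6 and Snhg12. Of 14 listed, 9 were in the table and 6 were tested, with a median log2 fold change of 0.45 beside 0.01 for all tested genes. Snhg15 rose, from 30.0, 27.4 and 31.4 CPM in control to 32.4, 55.2 and 49.4 in the knockout (edgeR log2 fold change 0.63, SE 0.19, adjusted p = 0.0394). Its groups did not overlap, but knockout library 1 stood only just above the highest control. The other 5 did not pass the test: 4 had positive values, namely Snhg10 (0.65, adjusted p = 0.202), Epb41l4aos (0.48, 0.108), Snhg16 (0.42, 0.237) and Snhg20 (0.40, 0.119), and Snhg4 had a negative one (-0.49, 0.138). So 1 of 6 was called higher and 0 lower by edgeR, few genes to set beside the 11.8% and 13.5% of all tested genes. None of the 6 was lower by DESeq2 or limma-voom or at an unadjusted p under 0.05. The Snhg15 call was lost under scaling by total counts (0.47, adjusted p = 0.0884), under the length and GC correction (0.37, 0.109), and without control library 1, 2 or 3 or knockout library 2 or 3 (0.47 to 0.68), and without knockout library 1 the number called higher was 3.

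The proteins that package snoRNAs were followed next. Of 18 tested genes for core snoRNA-binding proteins and their assembly factors, 6 rose and 0 fell, beside 11.8% and 13.5% of all tested genes, with a median log2 fold change of 0.43. Earlier results of these data were known when the list was chosen, so these counts are a description only. Nhp2, a core protein of box H/ACA particles, went from 336 ± 15.3 to 540 ± 110 CPM (SD, n = 3, log2 fold change 0.68, edgeR adjusted p = 0.0163), with 0.42 (0.0419) once length and GC content were corrected for. The assembly factors Shq1 (0.64, adjusted p = 0.0191), Ruvbl1 (0.61, 0.0232) and Nufip1 (0.53, 0.0355) rose as well. Fibrillarin (Fbl), the ribose methyltransferase, and dyskerin (Dkc1), the pseudouridine synthase, did not pass the test, with 0.42 (0.0712) and 0.21 (0.353). No gene of this list was lower at an unadjusted p under 0.05 or by DESeq2 or limma-voom. The number called higher depended on single libraries: it was 11 without control library 1, 14 without knockout library 1, 1 without control library 3 and 0 without control library 2, knockout library 2 or knockout library 3, and 3 when scaled by total counts.

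Messenger RNAs with the pyrimidine start of translation genes, the 5′ terminal oligopyrimidine (5′TOP) class, were followed with the Rpl and Rps genes left out. Of 18 tested, 9 rose and 0 fell, beside 11.8% and 13.5% of all tested genes, with a median log2 fold change of 0.46. The list was chosen with earlier results of these data known, so these counts are a description only. The translation elongation factor gene Eef1b2 went from 595, 549 and 531 CPM to 940, 1377 and 943 (log2 fold change 0.96, SE 0.17, edgeR adjusted p = 0.00588). All of its knockout values were above all control values, and knockout library 2 was highest, as it was for Snhg6. Fau (0.85, adjusted p = 0.0123, and 0.55, 0.0411 once length and GC content were corrected for), which encodes a ribosomal protein fused to a ubiquitin-like protein, Eef1g (0.59, 0.0133) and Rack1 (0.52, 0.0186), a protein of the small ribosomal subunit, rose too. Eef2 (-0.02, 0.914) and Pabpc1 (0.12, 0.516), both of the same class, did not pass the test. None was lower at an unadjusted p under 0.05 or by DESeq2 or limma-voom. The count fell to 1 without control library 2, 3 without control library 3 or knockout library 2 and 4 without knockout library 3, and 8 were higher after the length and GC correction.

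Nonsense-mediated decay removes many spliced host transcripts. Of 17 tested genes for its factors, 2 rose, 1 fell and 14 were not called, with a median log2 fold change of -0.01 beside 0.01 for all tested genes. The share higher was near the 11.8% of all tested genes, and 13.5% of those were lower, so the counts set these factors apart in neither direction. Smg1, the kinase that phosphorylates the decay helicase UPF1, fell from 234, 288 and 189 CPM to 127, 66.2 and 72.9 (log2 fold change -1.42, SE 0.25, edgeR adjusted p = 0.00586), with no overlap of the groups and the same call in all 16 alternatives. Its exons cover 23984 bases, and it remained lower once length and GC content were corrected for (-0.60, adjusted p = 0.0158). Magohb (0.70, 0.0209) and Rbm8a (0.65, 0.0260), which encode parts of the exon junction complex, rose. Upf1 itself (-0.15, 0.491) and Upf2 (-0.30, 0.126) did not pass the test. The number called higher was 5 after the length and GC correction or without knockout library 1, 1 without control library 1, and 0 under total-count scaling or without control library 2, knockout library 2 or knockout library 3. Of all 11453 tested genes 2060 were higher after the correction. The number lower was 4 under total-count scaling and 3 without knockout library 1.

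Proteins of the bodies that Neat1 and Malat1 occupy were read from 2 lists. Among 17 paraspeckle protein genes 3 fell and 0 rose, with 1 higher at an unadjusted p under 0.05, 1 by DESeq2 and 0 by limma-voom, and the median log2 fold change was 0.16. Of all tested genes 11.8% were higher and 13.5% lower, and 3 of 17 lower is near that share. The genes that fell were Smarca4 (328 ± 37.3 to 169 ± 23.7 CPM, SD, n = 3, log2 fold change -0.96, edgeR adjusted p = 0.00372, and -0.57, 0.0066 once corrected for length and GC content), a chromatin remodeller, and the RNA-binding proteins Hnrnpul1 (-0.58, 0.0197) and Hnrnph3 (-1.08, 0.0307). Hnrnph3 was highest in control library 2, at 50.6 CPM against 19.5 and 26.5 in the other controls, and without that library it was not called (-0.59, adjusted p = 0.124). The genes of 2 proteins that bind Neat1 at the paraspeckle core, Nono (0.07, 0.717) and Sfpq (0.14, 0.670), did not pass the test. After the length and GC correction 5 paraspeckle genes were higher and 2 lower, Hnrnpul1 no longer among them (-0.16, 0.262). Of all 11453 tested genes 2060 were higher and 955 lower under that correction. Without control library 2, knockout library 2 or knockout library 3 only 1 was lower, and without knockout library 1 there were 3 higher.

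Among 17 genes for speckle and splicing proteins, 2 rose and 1 fell, a share close to or under the 11.8% and 13.5% of all tested genes, with a median log2 fold change of 0.26. Rnps1, a splicing activator of the exon junction (174 ± 9.05 to 260 ± 36.4 CPM, SD, n = 3, log2 fold change 0.58, edgeR adjusted p = 0.0171), and Tra2b, a splicing regulator (0.45, 0.0474), rose. Son, a scaffold of the speckle core, fell (-0.53, 0.0307), but its value was 0.18 (0.250) after the length and GC correction. Under that correction 6 of the 17 were higher and 0 lower, beside 2060 and 955 of all 11453 tested genes. Srrm2, the other large speckle scaffold, did not pass the test (-0.49, 0.103). Without control library 2, knockout library 2 or knockout library 3 no gene of the list was called, only 1 was higher without control library 1 or 3 or under upper quartile or total-count scaling, and 7 were higher and 2 lower without knockout library 1.

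Other long noncoding RNAs with established names were also listed. Of 20 listed, 14 were in the table and 9 tested, of which 0 rose and 1 fell, few genes to set beside the 11.8% and 13.5% of all tested genes, with none higher at an unadjusted p under 0.05 or by DESeq2 or limma-voom. Oip5os1, also known as Cyrano, fell from 79.9, 97.4 and 99.9 CPM to 68.4, 59.7 and 58.6 (log2 fold change -0.57, edgeR adjusted p = 0.0180). Its groups did not overlap, but the call was lost under the length and GC correction (-0.32, adjusted p = 0.0606) and without control library 2 or 3 or knockout library 2 or 3 (-0.54 to -0.51). Of 16 listed RNAs that lack a poly(A) tail or are made by RNA polymerase III, 2 were in the table and Rmrp, the RNA of the RNase MRP complex, had at most 1 count in any library. The other, Terc, the telomerase RNA, was near the floor, with means of 1.01 CPM in control and 0.51 in the knockout. It did not pass the test (log2 fold change -1.01, edgeR adjusted p = 0.2) but was called lower without knockout library 1 (-1.60, adjusted p = 0.0447). Under a filter of 1 CPM in 3 libraries it was not tested. The rodent polymerase III transcript Bc1, looked up after the other values had been seen, was counted 1068, 145 and 46 times in control and 1379, 207 and 82 times in the knockout, high in library 1 of each group. Bc1 did not pass the test (log2 fold change 0.23, edgeR adjusted p = 0.907). Malat1, which also lacks a poly(A) tail, was lowest of its group in library 1 of each group. Neat1, whose long form lacks one too, was lowest of the controls in library 1 (345 CPM) but highest of the knockouts there (553 CPM). Whether the selection of RNA differed between libraries was not tested.

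**Figure D4:**
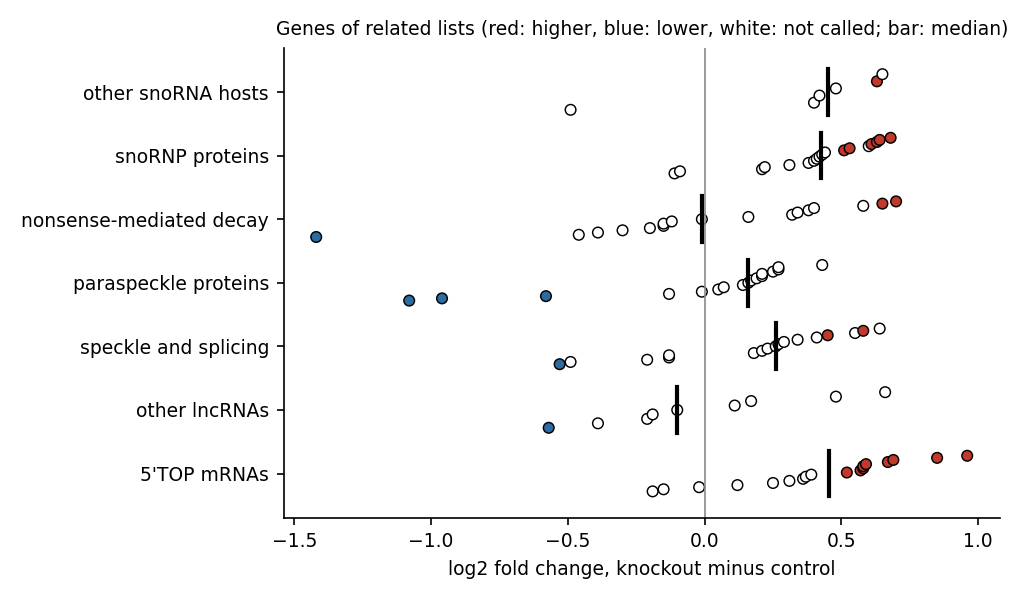
Log2 fold change, knockout minus control (x axis), of each tested gene in 7 lists related to snoRNA hosts and nuclear RNAs (rows), with a bar at each list's median, red for genes called higher, blue for genes called lower and white for the rest. The 5′TOP list has 9 red points of 18 and the snoRNA-particle list 6 of 18, and neither has a blue one.

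Genes next to the members were read from the same fit, in which 11.8% of all tested genes were called higher and 13.5% lower. Within 100 kb of Snhg6, 3 genes were tested: Cops5, of the COP9 signalosome, rose (130 ± 7.87 to 196 ± 22.1 CPM, SD, n = 3, log2 fold change 0.59, edgeR adjusted p = 0.0132), Cspp1 did not pass the test (-0.09, 0.653), and Sgk3, a kinase gene 41114 bases away, fell. For Sgk3, control counts were 152, 344 and 536 and knockout counts 2, 4 and 5 (log2 fold change -6.30, SE 0.33, adjusted p = 5.74e-06), so the gene near Snhg6 that changed most went the other way. Leaving out control library 2 (0.55, adjusted p = 0.0813) or knockout library 2 (0.50, 0.0558) ended the Cops5 call. Over the whole table, the genes called higher fell from 1353 to 166 and 399 in these settings. Mcmdc2, on the opposite strand, overlaps the last 127 bases of Snhg6. With at most 8 Mcmdc2 counts in any library, and since no label states whether counting used strand, reads of the overlap could be assigned to either gene.

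Around Snhg12, 8 neighbours were tested, of which 2 rose and the other 6 were not called. These are few genes to set beside the 25.3% of all tested genes called in either direction. Trnau1ap, whose product acts in selenocysteine incorporation and whose gene ends 739 bases from Snhg12, went from 24.8, 30.1 and 31.0 CPM to 33.2, 57.1 and 51.1 (log2 fold change 0.72, SE 0.20, edgeR adjusted p = 0.0290). Taf12, of the basal transcription factor TFIID, rose less (0.44, 0.0465). Trnau1ap groups did not overlap, whereas those of Snhg12 did. The Trnau1ap call was lost under total-count scaling (0.55) and without control library 1, 2 or 3 or knockout library 2 or 3 (0.56 to 0.78), and that of Taf12 under the same settings (0.28 to 0.45), among others. Phactr4 was lower at an unadjusted p of 0.0296 but not after adjustment (-0.37, 0.0857).

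Around Malat1 and Neat1, which share most neighbours, 10 and 11 neighbours were tested, each other included. The same 1 was called lower around both and 0 higher, beside 13.5% and 11.8% of all tested genes. Ltbp3, a binding protein of latent TGF-beta, fell from 2.86, 8.12 and 8.51 CPM to 0.453, 1.14 and 1.04 (log2 fold change -2.87, SE 0.48, edgeR adjusted p = 0.00448). Frmd8, 4224 bases upstream of Neat1, had 80.5 ± 1.59 CPM in control and 85.5 ± 18.0 in the knockout (SD, n = 3, log2 fold change 0.09, adjusted p = 0.708). The antisense RNA Frmd8os starts 145 bases from the Neat1 start and had at most 10 counts in any library, too few to be tested.

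The genes whose log2 CPM followed each member most closely over the 6 libraries differed between members. They were sought among 7672 tested genes whose mean log2 CPM reached 4, with predicted genes (Gm number or Rik symbols) left out. Snhg6 was followed by Timm13, for a mitochondrial import chaperone (Pearson r = 1.00), Rps20, a ribosomal protein (0.998), and Ndufa13, a subunit of respiratory complex I (0.996). Snhg12 was followed by Tmed3 (0.997), Lgals1 (0.994), which encodes galectin-1, and Chmp6 (0.990). Malat1 was followed by Filip1l (0.971), Wdr20 (0.941) and Itfg1 (0.939), and for Neat1 the genes reported are Hs1bp3 (0.948) and Grina (0.947). With 6 points that share library, depth and group, the largest of 7672 correlations is high by construction, and these values are a description only.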

How the data were processed

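Members and gene lists were chosen with earlier results of these data known. The authors deposited 1 table of read counts per gene, not normalized. Per the labels' protocols, RNA was extracted with TRIzol and libraries were made with KAPA Hyper Prep kits. The submitters' processing notes name Trimmomatic 0.39, STAR 2.7.5c, StringTie 2.1.7 and the mm10 build. The counting step, its annotation and strand setting, and any poly(A) selection were not given in the sources used here.

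Genes were filtered with filterByExpr, scaled by TMM and tested with edgeR 4.0.16 (glmQLFit, glmQLFTest, two-sided, knockout minus control, all 6 libraries, Benjamini-Hochberg adjustment over 11453 genes, threshold 0.05) in R 4.3.3. The common biological coefficient of variation was 17.5%. No label says that the libraries are separate cultures, and p-values then reflect only how these 6 libraries vary, which can be technical. Counting error is given as 1 over the square root of the count. Members were all named. From lists, up to 4 called genes were named, by lowest adjusted p among those whose groups did not overlap, with every tested other host, and for each member the 3 genes of highest correlation. A gene that this rule selects is not reported here. Fbl, Dkc1, Eef2, Pabpc1, Upf1, Upf2, Nono, Sfpq, Srrm2, Phactr4, Frmd8, Bc1, Terc and the other neighbours were added after their values were seen. Annotation and sequences came from GENCODE M21 (GRCm38). Of 31205 symbols 30194 matched directly and 346 through another symbol. Alternatives were 3 scalings, 2 filters, DESeq2 1.42.0, limma-voom (limma 3.58.1), the replicate number as a block, offsets that remove the loess trend (span 0.3) with length and GC content, with and without the block, and each library left out. The steps were tested on simulated data.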

Additional observations from a re-analysis of the deposited data

How the results depend on the processing

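Over 16 alternatives, Snhg6 was higher in all and called in 14, with log2 fold changes from 0.72 to 1.17, and from 0.79 to 1.17 with a library left out (lost without control library 2, 0.88, and knockout library 2, 0.79). Snhg12 was positive in all and called in 2: with the replicate block (0.47, adjusted p = 0.0494) and without control library 1 (left-out range 0.39 to 0.62). Malat1 was called in none and ranged from -0.37 to 0.0093, turning positive under the length and GC correction (0.0093; 0.0065 with the block), and from -0.35 to -0.04 with a library left out. Neat1 changed sign without the filter on low counts (0.01), with DESeq2 (0.01), under the length and GC correction (0.83; 0.88 with the block), and without control library 3 (0.22) or knockout library 2 (0.20), in a left-out range of -0.17 to 0.22. The causes were not tested.

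The number of members higher was 1, and 2 with the block, with the length and GC correction and with both, and 0 to 2 with a library left out. Other snoRNA hosts higher numbered 1, and 0 with total counts, the correction and the correction with the block, and 0 to 3 with a library left out. All genes higher numbered 1353, and 667 with total counts, 2060 with the correction and 166 to 2346 with a library left out, the lowest without control library 2. All genes lower numbered 1543, and 955 with the correction, 989 with the block added and 472 to 2616 with a library left out, the lowest without control library 2 and the highest without knockout library 1. Scaling by total counts moved the median of all tested genes from 0.01 to -0.14, and under it 667 were higher and 2212 lower.

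Libraries of the same number were not treated as pairs, since the correlations of their deviations from the group means (0.154, -0.0644 and 0.358 over 11453 genes) did not all exceed 0.1, and control library 2 followed knockout library 1 (0.141) more than its own number. Beyond Snhg12 (0.47), the block changed the call of no member. With 3 libraries a group small differences could be missed, and the intervals of Malat1 and Neat1 cover changes in both directions. At 245 counts, the lowest of any member, counting error alone was 6.39%.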
